A study of Homo sapiens with 20 samples.

Results

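The genes of the Notch pathway were followed in RNA-seq libraries of U2-OS cells, a human osteosarcoma line. The set held 10 of the 20314 genes in the count table and was defined by gene names: the receptors NOTCH1, NOTCH2 and NOTCH3, the ligands JAG1, JAG2 and DLL1, and the transcriptional repressors HES1, HES4, HEY1 and HEY2. The study compared 4 groups of 5 biological replicates. Untreated cells received no irradiation (0 Gy), cells in the first phase were harvested 1.5 h after ionising radiation (IR) with 20 Gy, cells in the second phase 7 days after the same dose, and the remaining group carried an shRNA against NFKBIA without irradiation (0 Gy). NFKBIA encodes IκBα, the inhibitor that holds NF-κB in the cytoplasm. The study describes a doxycycline-inducible shRNA in this group, from lentiviral vectors with puromycin selection of clones and scrambled shRNA as control. The labels give neither the vector nor the number of clones, and those of the untreated libraries name no control vector. Effects of the vector, of doxycycline or of the selection and an effect of less NFKBIA therefore cannot be told apart in the knockdown comparison.

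Notch receptors are single-pass membrane proteins that are activated by ligands of the Jagged and Delta-like families on a neighbouring cell. Ligand binding exposes the receptor to ADAM proteases and then to γ-secretase, and the released intracellular domain joins the DNA-binding protein RBPJ and a Mastermind-like coactivator in the nucleus. HES and HEY genes are the classical targets of this complex, and their products are basic helix-loop-helix repressors that also act on their own promoters or on those of lineage genes. In bone, Notch activity is known to restrain osteoblast differentiation, and U2-OS cells stem from that lineage.

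The promoters of HES1, HES4 and JAG1 are shown because they set a classical target pair against the ligand that changed in both phases. Each is the stretch of 250 bases before the annotated start, written in the direction of the gene, from RefSeq on GRCh38.p14. Capitals mark the letters TGGGAA, the core that RBPJ is known to bind, searched on both strands (reverse complement TTCCCA). The HES1 stretch lies at chr3:194135898-194136147 (+ strand), the HES4 stretch at chr1:1000098-1000347 (− strand) and the JAG1 stretch at chr20:10674000-10674249 (− strand).
HES1: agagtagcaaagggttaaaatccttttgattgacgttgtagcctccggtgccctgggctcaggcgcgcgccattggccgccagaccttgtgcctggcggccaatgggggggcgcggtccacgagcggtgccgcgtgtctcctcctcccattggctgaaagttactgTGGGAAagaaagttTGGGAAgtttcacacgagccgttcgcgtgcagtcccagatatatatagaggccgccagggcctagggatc
HES4: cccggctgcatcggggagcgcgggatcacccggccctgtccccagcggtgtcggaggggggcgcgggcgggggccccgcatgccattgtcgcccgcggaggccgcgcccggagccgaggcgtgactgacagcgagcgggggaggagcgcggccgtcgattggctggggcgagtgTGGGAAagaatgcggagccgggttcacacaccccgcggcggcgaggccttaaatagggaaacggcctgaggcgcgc
JAG1: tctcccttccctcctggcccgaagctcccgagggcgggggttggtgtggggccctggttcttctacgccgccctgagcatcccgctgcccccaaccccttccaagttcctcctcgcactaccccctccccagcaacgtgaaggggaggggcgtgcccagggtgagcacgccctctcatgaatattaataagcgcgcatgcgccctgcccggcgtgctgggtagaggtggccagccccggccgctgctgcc
The HES1 stretch held the letters 2 times, with first bases 84 and 70 bases before the start and in the same direction. The HES4 stretch held them once, 76 bases before the start. Of the 8 genes with an entry in the promoter table, HEY2 was the only other one with a match, on the opposite strand. None of these matches overlapped a match to the letters CACNAG (the N-box, which HES proteins are known to bind) or CANNTG (the E-box). The RBPJ letters were present in 20.8% of all 35116 promoter stretches of this length, and 2.9% held them at least 2 times. The N-box letters were found in the stretches of HES1 and NOTCH3 (32% of all stretches), and the E-box letters in that of JAG2 (61.8% of all stretches). A match describes letters and is no evidence of binding.

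Libraries held between 22535659 and 40390961 counted reads. Levels are given as CPM, the counts relative to the size of the library after scaling by the TMM method of edgeR. The untreated libraries varied most: the median coefficient of variation over the 14992 genes tested was 15.5% in untreated cells, 5.78% at 1.5 h, 4.46% at 7 days and 5.15% in the knockdown. For the 8 Notch genes that were tested the corresponding medians were 25.0%, 7.81%, 6.22% and 4.83%. The model used 1 estimate of the spread per gene for all 4 groups. Standard errors and p-values against untreated cells therefore also draw on the less variable groups. Untreated replicates 4 and 5 stood apart. Replicate 4 was the lowest untreated library for NOTCH1, NOTCH2, NOTCH3 and JAG1. Replicate 5, the shallowest of all libraries, was the highest for the 3 receptors and for HES1 and the lowest for JAG2, DLL1 and HEY1. Lane codes in the labels ran from 2 to 6 and followed the groups, with untreated replicate 5 the only untreated library that shared a lane with irradiated ones. A fit with the lane as a term therefore rested on that library alone for untreated cells, and reached the 7-day and knockdown libraries through a chain of shared lanes. Its values are called lane-adjusted values here. The lane shared by 7-day and knockdown libraries holds 1 knockdown library, so that values within it rest on that library for the knockdown.

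The targeted gene followed its label. NFKBIA averaged 31.3 ± 7.25 CPM (SD, n = 5) in untreated cells and 12.1 ± 0.667 CPM in the knockdown, a log2 fold change of −1.36 ± 0.11 (SE) with adjusted p = 4.87e-09 (edgeR quasi-likelihood test, Benjamini-Hochberg over all genes tested), and all knockdown libraries lay below all untreated ones. The 6 mesenchymal and osteoblast markers summed to between 4820 and 7730 CPM per library, carried by SPARC, COL1A1 and VIM, while COL1A2 never exceeded 21 counts. The 5 epithelial markers summed to at most 12.7 CPM, the 5 haematopoietic markers to at most 2.19 CPM, and the 3 endothelial markers to between 39.6 and 61.4 CPM, nearly all of it EGFL7 and TEK, with CDH5 at 8 counts or fewer.

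Each of the 3 receptors had a higher mean level than each of the 3 ligands in untreated cells. Per kilobase of exon, a scale on which genes can be compared, NOTCH2 led with 25.2 ± 6.94 CPM per kb, followed by HES1 with 23.7 ± 5.5, NOTCH3 with 6.68 ± 2.23 and NOTCH1 with 4.22 ± 0.907. NOTCH2 ranked at the 85.5th percentile of the genes tested and HES1 at the 84.4th. JAG1 was the leading ligand at 2.02 ± 0.150 CPM per kb, at the 28.1th percentile. HEY1 (0.879 ± 0.255), DLL1 (0.465 ± 0.125) and JAG2 (0.297 ± 0.0674) were the lowest that could be tested. The spread of NOTCH2 and HES1 overlapped, as did that of NOTCH3 and NOTCH1. In irradiated cells NOTCH1 lay above NOTCH3, with 7.59 ± 0.295 against 5.90 ± 0.523 CPM per kb at 1.5 h and 6.07 ± 0.441 against 4.72 ± 0.221 at 7 days. NOTCH2 has near-identical NOTCH2NL copies, which are separate genes, and none of them was analysed here. How reads that match both were counted is not given in the sources used here, so the NOTCH2 counts are uncertain.

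**Figure D1:**
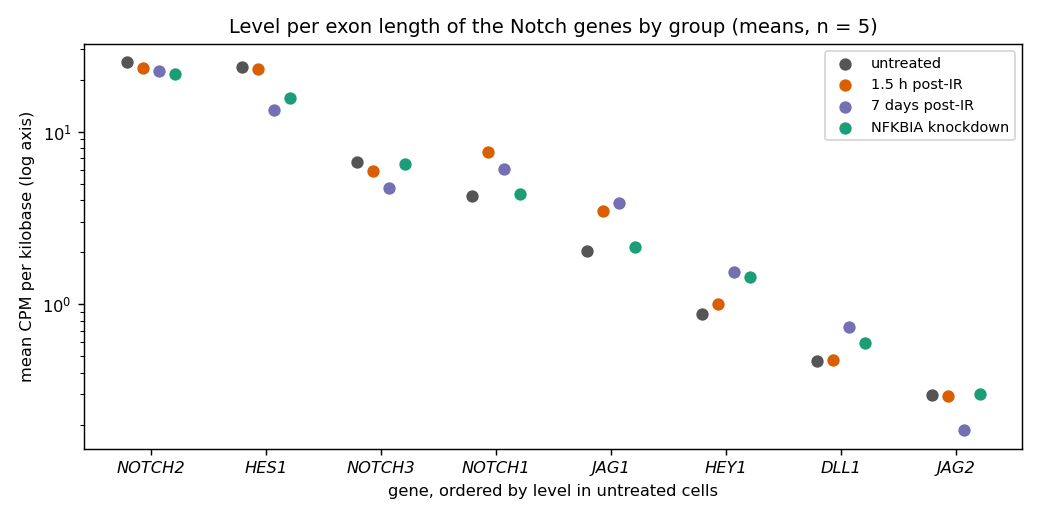
Mean level per exon length (CPM per kilobase, log axis) of the 8 tested Notch genes in the 4 groups, ordered by their level in untreated cells. The order runs from NOTCH2 at 25.2 to JAG2 at 0.297 in untreated cells, and NOTCH1 lies above NOTCH3 in both irradiated groups.

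HES4 and HEY2 were not detectable as expressed genes at this depth. HES4 had 0 counts in all 20 libraries, of 656004432 counts in total, which allows up to 0.00457 CPM over the sum of all libraries (3 counts) and between 0.0743 and 0.133 CPM in a single library. HEY2 had 2 counts, 1 each in a library of the second phase and of the knockdown. These limits cover counting error only. The remaining 8 genes passed the filter on low counts and were tested.

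In the first phase, 1.5 h post-IR, 2 of the 8 genes changed, the ligand JAG1 and the receptor NOTCH1, and both rose. Genes were called where the log2 fold change was larger than 0.5, up or down, and the adjusted p lay under 0.05. By this rule 3.66% of all genes were called in this comparison and 2.08% were called higher. The libraries of both groups did not overlap for the same 2 genes (12.3% of all genes), and no further member had an adjusted p under 0.05 (21.3% of all genes). The median log2 fold change of the 8 genes was −0.02, and that of all genes was −0.03. In the second phase, 7 days post-IR, 6 of the 8 were called, where 31.1% of all genes were: JAG1, HEY1, DLL1 and NOTCH1 were higher (16.7% of all genes) and HES1 and JAG2 were lower (14.4% of all genes). Libraries did not overlap for 5 of the 8 (44.8% of all genes), and 7 of the 8 had an adjusted p under 0.05 (64.2% of all genes), all but NOTCH2. The median log2 fold change was 0.18 for the 8 genes and 0.01 for all genes. In the knockdown 2 of the 8 were called, HEY1 higher and HES1 lower, where 12.7% of all genes were called (5.18% higher and 7.53% lower). For these 2 genes alone the libraries did not overlap (24.1% of all genes) and the adjusted p was under 0.05 (40.5% of all genes). The median was 0.02 for the 8 genes and −0.01 for all genes. These comparisons share the untreated libraries.

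**Figure D2:**
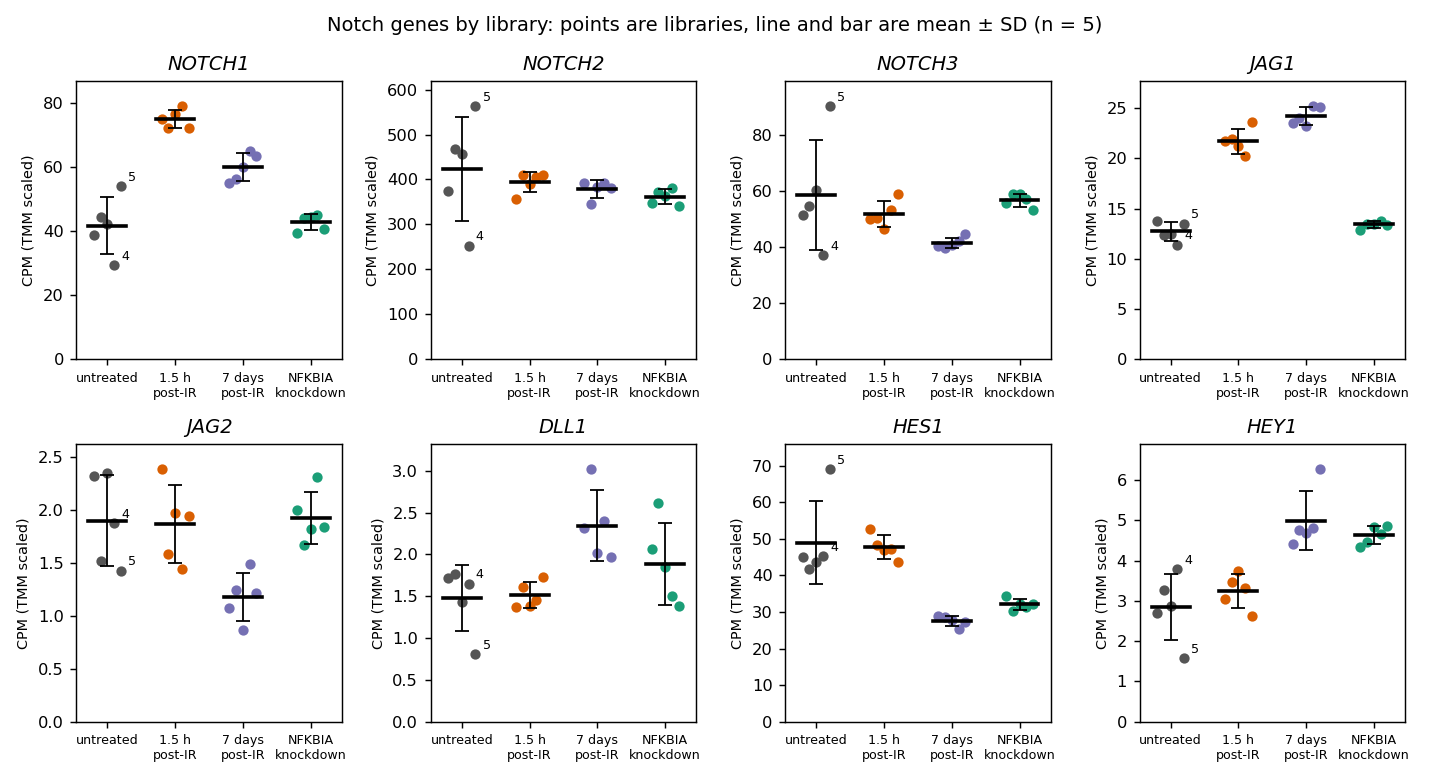
Level of the 8 tested Notch genes in each library (CPM, linear axes from 0), with the mean and SD of each group (n = 5) and untreated replicates 4 and 5 numbered. JAG1 is above 20 CPM in all irradiated libraries and below 14 CPM in all others, HES1 is lowest at 7 days, and the untreated libraries spread more than the other groups for NOTCH2 and NOTCH3.

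JAG1, which encodes the ligand Jagged1, gave the most regular pattern. The untreated libraries held 13.8, 12.4, 12.5, 11.4 and 13.5 CPM (replicates 1 to 5), the libraries at 1.5 h 21.7, 21.9, 21.2, 20.2 and 23.6 CPM, those at 7 days 23.5, 24.0, 23.2, 25.2 and 25.1 CPM, and those of the knockdown 12.9, 13.5, 13.5, 13.8 and 13.4 CPM. All irradiated libraries lay above all non-irradiated ones. JAG1 rose 1.71-fold at 1.5 h (log2 fold change 0.77 ± 0.05 SE, adjusted p = 1.74e-09) and 1.9-fold at 7 days (0.93 ± 0.05, adjusted p = 5.3e-12). Lane-adjusted log2 fold changes were 0.68 and 0.80, and the call held under all alternatives computed. The second phase exceeded the first by 0.16 ± 0.05 on the log2 scale (adjusted p = 0.0148), below the threshold on the fold, with overlapping libraries and an exact two-sided permutation p of 0.0238 (0.044 after adjustment over 48 tests of 8 genes and 6 pairs of groups). Within the lane that holds libraries of both phases the difference was 0.12 (adjusted p = 0.239). The knockdown differed from untreated cells by 0.08 ± 0.06 on the log2 scale (adjusted p = 0.276). The 7-day libraries exceeded those of the knockdown by 0.85 ± 0.05 (adjusted p = 2.64e-11), and by 0.92 within their shared lane, against 1 knockdown library.

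The JAG1 exons overlap an antisense transcript, AL050403.2, on the other strand. The libraries were stranded per the methods, but whether the counting used strand is not given in the sources used here. Reads of both could be joined in this row only if it did not.

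NOTCH1, a receptor that signals in many tissues, was highest in the first phase. The untreated libraries held 38.7, 44.4, 42.2, 29.3 and 54.0 CPM, those at 1.5 h 75.1, 72.3, 76.5, 79.0 and 72.2 CPM, those at 7 days 55.0, 56.3, 59.9, 64.9 and 63.6 CPM, and those of the knockdown 39.4, 44.2, 44.5, 44.9 and 40.8 CPM. Groups did not overlap between untreated cells, 7 days and 1.5 h, in this rising order, although untreated replicate 5 lay close to the lowest 7-day library. NOTCH1 rose 1.8-fold at 1.5 h (log2 fold change 0.85 ± 0.10, adjusted p = 3.6e-06). At 7 days it was 1.44-fold above untreated cells (0.53 ± 0.10, adjusted p = 0.000125), close to the threshold on the fold. Lane-adjusted values were 0.47 at 1.5 h (adjusted p = 0.0145) and 0.03 at 7 days (adjusted p = 0.922), both below the threshold. The 7-day call was also lost without untreated replicate 1 (0.499), without untreated replicate 4 (0.40) and without 7-day replicate 4 (0.48). From the first to the second phase the log2 level differed by −0.32 ± 0.10 (adjusted p = 0.00819), which is below the threshold on the fold, and by −0.44 within the shared lane (adjusted p = 0.00526). The knockdown differed from untreated cells by 0.04 ± 0.10 (adjusted p = 0.789), and by −0.65 with the lane as a term (adjusted p = 0.0435).

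NOTCH2, the most abundant receptor, and NOTCH3 were not called in any comparison, although both passed the threshold in some with the lane as a term, and NOTCH3 at 7 days did so in 13 of 22 alternatives. NOTCH2 reached 563 CPM in untreated replicate 5, which was 2.23 times its level in replicate 4, and the other groups lay within this range at 357 to 411, 345 to 393 and 342 to 382 CPM for 1.5 h, 7 days and the knockdown. Its log2 fold changes against untreated cells were −0.10 ± 0.13, −0.16 ± 0.13 and −0.23 ± 0.13, with adjusted p between 0.166 and 0.629. Lane-adjusted values were −0.55 (adjusted p = 0.0348), −0.69 (adjusted p = 0.0407) and −0.84 (adjusted p = 0.0696). At 7 days the value was −0.35 with offsets for GC content and length (adjusted p = 3.15e-05) and, of the 2 outlying untreated libraries, −0.33 without replicate 4 (adjusted p = 0.0016) and −0.06 without replicate 5 (adjusted p = 0.664). None of the 6 pairs of groups differed in the permutation test after adjustment.

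NOTCH3 stood just short of a call at 7 days. The untreated libraries held 51.5, 54.7, 60.3, 37.1 and 90.4 CPM, those at 1.5 h 50.1, 50.6, 46.6, 53.4 and 58.9 CPM, those at 7 days 40.5, 39.6, 40.7, 42.1 and 44.6 CPM, and those of the knockdown 55.7, 59.0, 58.9, 57.1 and 53.3 CPM. The 7-day libraries lay below all libraries of the first phase and of the knockdown, and below all untreated libraries except replicate 4. Against untreated cells the log2 fold change was −0.50 ± 0.14 (adjusted p = 0.00421), −0.65 without untreated replicate 4, −0.32 without replicate 5 and −1.37 with the lane as a term. With only these 2 groups fitted, the log2 fold change was −0.52 (adjusted p = 0.0295). Against the first phase it was −0.32 ± 0.14 (adjusted p = 0.0529) and against the knockdown −0.45 ± 0.14 (adjusted p = 0.00932). The exact permutation test gave adjusted p = 0.0166 for both of these pairs and 0.0816 against untreated cells. The value of 0.0166 is the smallest this test could reach, and 23 of the 48 tests shared it. Lane-adjusted values against untreated cells were −0.88 at 1.5 h (adjusted p = 0.000153) and −0.98 in the knockdown (adjusted p = 0.00951), where the values without the lane were −0.18 ± 0.14 and −0.05 ± 0.14.

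The 2 less abundant ligands moved in opposite directions in the second phase. JAG2, which encodes Jagged2, measured 2.32, 1.52, 2.35, 1.88 and 1.43 CPM in the untreated libraries and 1.08, 1.25, 0.865, 1.49 and 1.22 CPM at 7 days, from no more than 94 counts in any library. Only 7-day replicate 4 reached into the untreated range. JAG2 fell by 0.71 ± 0.18 on the log2 scale (0.612-fold, adjusted p = 0.0014), by 0.67 ± 0.17 against the first phase (adjusted p = 0.0022) and by 0.71 ± 0.18 against the knockdown (adjusted p = 0.00176). Lane-adjusted values were −0.07 (adjusted p = 0.914), −0.55 (adjusted p = 0.117) and −0.75 (adjusted p = 0.0578), so that none of the 3 calls held with the lane as a term. At 1.5 h and in the knockdown JAG2 differed from untreated cells by −0.04 ± 0.16 and 0.00 ± 0.16. JAG2 exons overlap a transcript on the same strand, AL512356.1, that was not analysed here.

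DLL1, the ligand Delta-like 1, measured 1.72, 1.77, 1.43, 1.65 and 0.809 CPM in untreated cells, 1.37, 1.61, 1.38, 1.46 and 1.73 CPM at 1.5 h, 2.31, 3.02, 2.02, 2.4 and 1.97 CPM at 7 days and 2.06, 2.61, 1.85, 1.5 and 1.38 CPM in the knockdown. All 7-day libraries lay above all libraries of untreated cells and of the first phase, and the knockdown overlapped every other group. DLL1 rose 1.55-fold at 7 days (log2 fold change 0.63 ± 0.18, adjusted p = 0.00403), a call that was lost without untreated replicate 5 (0.496, adjusted p = 0.00836) and had a lane-adjusted value of 1.57 (adjusted p = 0.00736). At 1.5 h DLL1 differed from untreated cells by 0.00 ± 0.20 (adjusted p = 0.999), and by 0.84 with the lane as a term (adjusted p = 0.0919). In the knockdown it differed by 0.33 ± 0.18 (adjusted p = 0.161), and by 1.52 with the lane as a term (adjusted p = 0.0359). The lane-adjusted values against untreated cells rest on untreated replicate 5, the lowest library for DLL1. DLL1 rose by the same 0.63 ± 0.18 from the first to the second phase (adjusted p = 0.00374) and by 0.73 within the shared lane (adjusted p = 0.0136). DLL1 overlaps FAM120B on the other strand, with no exon of one over an exon of the other in the annotation used here.

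HES1, the best known target of Notch, was lower in the second phase and in the knockdown. The untreated libraries held 45.1, 41.7, 43.6, 45.2 and 69.1 CPM, those at 1.5 h 52.6, 48.2, 46.9, 47.2 and 43.7 CPM, those at 7 days 29, 28.7, 27.7, 25.4 and 27.3 CPM, and those of the knockdown 34.3, 30.4, 32.1, 31.4 and 32.3 CPM. The levels of the 7-day libraries, of the knockdown and of the untreated libraries followed each other without overlap, and the first phase lay within the untreated range. HES1 fell by 0.82 ± 0.10 on the log2 scale at 7 days (0.566-fold, adjusted p = 4.1e-07), by 1.14 with the lane as a term and by 0.68 without untreated replicates 4 and 5, an alternative chosen after seeing the data. It fell by 0.79 ± 0.10 from the first to the second phase (adjusted p = 7.09e-07) and by 0.66 within the shared lane. In the first phase it differed from untreated cells by −0.03 ± 0.10 (adjusted p = 0.867), and by −0.49 with the lane as a term (adjusted p = 5.6e-05). In the knockdown it fell by 0.60 ± 0.10 (0.658-fold, adjusted p = 6.18e-05), with a lane-adjusted value of −0.79. The lane-adjusted values of HES1 against untreated cells rest on untreated replicate 5. Without untreated replicate 5, the highest library, the knockdown value was −0.47 (adjusted p = 2.15e-07), below the threshold on the fold. The 7-day and knockdown libraries differed by −0.22 ± 0.10 (adjusted p = 0.0725, exact permutation p adjusted to 0.0166), and by −0.36 within their shared lane, against 1 knockdown library. The sum of the mesenchymal and osteoblast markers was lower in the same groups, with 4820 to 5340 CPM at 7 days and 4920 to 5240 CPM in the knockdown against 5960 to 7730 CPM in untreated cells and 5730 to 6000 CPM at 1.5 h. Its members went different ways, with COL1A1 at 617 CPM in the knockdown and 1970 CPM in untreated cells, SPARC at 2170 and 2140 CPM, and ALPL at 45.4 CPM at 7 days and 26.9 CPM in untreated cells. The epithelial sum was also lower, with 3.62 to 4.24 CPM at 7 days and 3.52 to 4.22 CPM in the knockdown against 9.05 to 12.7 CPM in untreated cells and 8.77 to 10.8 CPM at 1.5 h. In the knockdown KRT14 averaged 0.491 CPM (4.82 in untreated cells) and CDH1 0.44 CPM (1.83), whereas EPCAM averaged 3.01 CPM (3.4). The part of either sum in the lower HES1 was not tested. In RNA from whole cultures, less transcript per cell and fewer cells with the transcript cannot be told apart.

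HEY1, a related repressor, moved the other way. The untreated libraries held 2.70, 3.27, 2.88, 3.79 and 1.57 CPM, those at 1.5 h 3.05, 3.46, 3.74, 3.31 and 2.63 CPM, those at 7 days 4.42, 4.76, 4.67, 4.81 and 6.27 CPM, and those of the knockdown 4.33, 4.46, 4.84, 4.66 and 4.85 CPM. The 7-day and knockdown libraries overlapped each other and lay above all untreated and first-phase libraries. The endothelial marker sum was 53.7 to 61.4 CPM at 7 days and 50 to 58.6 CPM in the knockdown, against 41.1 to 46.3 CPM at 1.5 h and 39.6 to 56.9 CPM in untreated cells, and its part in the higher HEY1 was not tested. Its members differed: EGFL7 averaged 39.0, 50.1 and 45.7 CPM in untreated cells, at 7 days and in the knockdown, and TEK 8.37, 7.08 and 8.57 CPM. HEY1 rose 1.72-fold at 7 days (log2 fold change 0.78 ± 0.15, adjusted p = 9.36e-05) and 1.6-fold in the knockdown (0.68 ± 0.15, adjusted p = 0.001). Without untreated replicate 5, the lowest library, these values were 0.64 and 0.54, and both calls held. Lane-adjusted values, which rest on that lowest library, were 1.74 and 1.47. From the first to the second phase HEY1 rose by 0.62 ± 0.14 (adjusted p = 0.000833) and by 0.63 within the shared lane (adjusted p = 0.00527). The 7-day and knockdown libraries differed by 0.10 ± 0.14 (adjusted p = 0.548). In the first phase the difference from untreated cells was 0.16 ± 0.15 (adjusted p = 0.488), whereas against untreated replicate 5 alone, the lane-adjusted value, it was 1.12 (adjusted p = 0.00233).

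**Figure D3:**
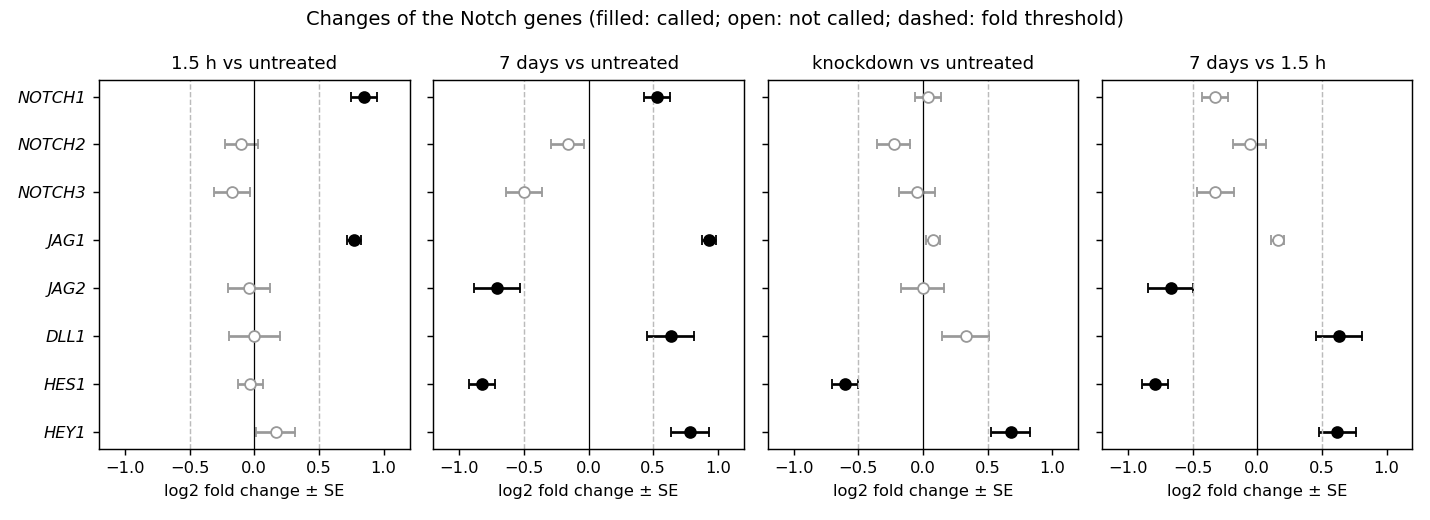
Log2 fold changes with standard errors of the 8 tested Notch genes in 4 comparisons. Filled points were called, and only JAG1 and NOTCH1 are filled at 1.5 h, while HES1 and HEY1 lie on opposite sides of 0 at 7 days and in the knockdown.

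Between the phases themselves, 4 of the 8 genes were called, HES1 and JAG2 lower and HEY1 and DLL1 higher at 7 days than at 1.5 h, where 29.3% of all genes were called (16.8% higher and 12.6% lower). Libraries did not overlap for 5 of the 8 (61.8% of all genes), and 6 had an adjusted p under 0.05 (60.9% of all genes). The median log2 fold change was −0.19 for the 8 genes and 0.01 for all genes. The untreated libraries enter neither side of this comparison, although they share in its estimate of the spread. With only the libraries of the 2 groups fitted, 4 of the 8 genes were again called, beside 29.7% of all genes in that fit, and NOTCH3 (−0.33) had adjusted p = 2.82e-05. Between the second phase and the knockdown, 2 of the 8 were called, JAG1 higher and JAG2 lower, where 25.7% of all genes were (15.8% higher and 9.89% lower). Libraries did not overlap for 5 of the 8 (60.7% of all genes), and 4 had an adjusted p under 0.05 (57.4% of all genes). The median was 0.09 for the 8 genes and 0.00 for all genes. NOTCH1 was 1.4-fold higher at 7 days than in the knockdown (log2 fold change 0.49 ± 0.10, adjusted p = 0.000329) and just below the threshold on the fold. It passed the threshold without 7-day replicate 1 (0.501, adjusted p = 0.000681) and with the lane as a term (0.67), which rests on 1 knockdown library.

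**Figure D4:**
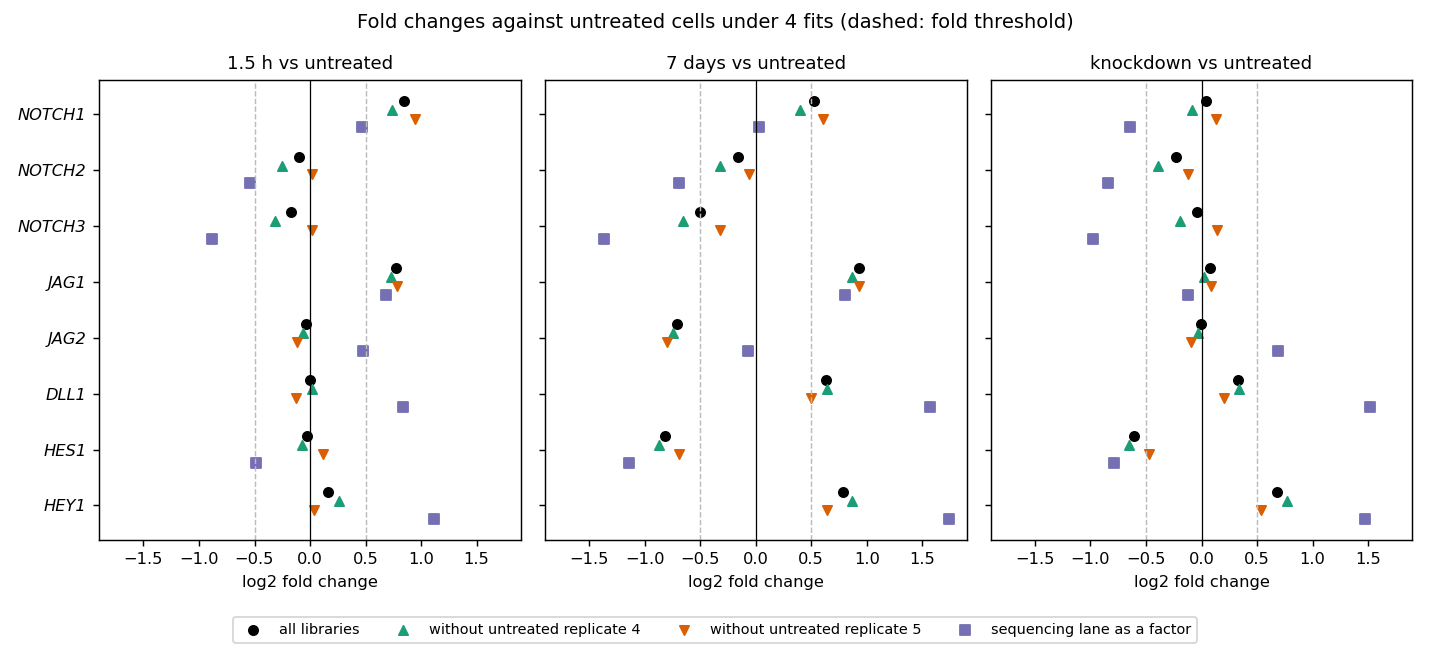
Log2 fold changes against untreated cells of the 8 tested Notch genes with all libraries, without untreated replicate 4, without untreated replicate 5 and with the sequencing lane as a term. JAG1 lies between 0.68 and 0.79 at 1.5 h and between 0.80 and 0.93 at 7 days in the 4 fits, whereas NOTCH1 at 7 days moves from 0.53 to 0.03 with the lane as a term.

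Other genes of the pathway were read from a list of 62, of which 61 were in the table and 54 could be tested. The ligand DLL4 (at most 10 counts in a library), DLK1, the targets HES2, HES3, HES5 and HEYL, and the feedback regulator NRARP had too few counts, and NUMB was not analysed here. In the first phase 2 of the 54 were called, 1 in each direction (3.7%, beside 3.66% of all genes). FBXW7, the ubiquitin ligase component that marks the Notch intracellular domain for degradation, rose from 43.2 ± 4.75 to 86.6 ± 2.43 CPM (log2 fold change 1.01 ± 0.06, adjusted p = 8.24e-11). DTX2, a Deltex ubiquitin ligase, was lower by 0.73 ± 0.20 (adjusted p = 0.0131) but by 0.35 without untreated replicate 5, which ended the call. Its lane-adjusted value was −1.78.

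In the second phase 21 of the 54 were called, 10 higher and 11 lower, or 38.9% beside 31.1% of all genes. Their median log2 fold change was −0.09, and that of all genes 0.01. Of the 21 calls, 12 held when each library was left out in turn, 8 were lost without untreated replicate 5, and 17 held in direction and threshold with the lane as a term. HES7, an oscillating repressor of the HES family, rose from 0.546 ± 0.191 to 1.5 ± 0.331 CPM (log2 fold change 1.4 ± 0.22, adjusted p = 1.11e-05), a low level of no more than 56 counts in a library. HES6, which opposes HES1 in neurogenesis, fell from 7.44 ± 2.58 to 3.32 ± 0.282 CPM (−1.18 ± 0.20, adjusted p = 2.54e-05), with a lane-adjusted value of −0.44 (adjusted p = 0.44). DTX4, another Deltex ligase, rose from 26 ± 1.17 to 50.3 ± 0.953 CPM (0.95 ± 0.04, adjusted p = 7.11e-14), and FBXW7 rose to 81.4 ± 1.56 CPM (0.92 ± 0.06, adjusted p = 1.7e-11). MAML3, a Mastermind-like coactivator, fell from 20.3 ± 6.94 to 8.40 ± 1.06 CPM (−1.26 ± 0.16, adjusted p = 5.68e-07), with a lane-adjusted value of −2.03. TLE2, a Groucho corepressor with which HES proteins act, fell from 36.5 ± 3.28 to 18.2 ± 0.597 CPM (−1.01 ± 0.07, adjusted p = 3.38e-11).

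By role, 4 of the 5 genes that glycosylate Notch receptors were called at 7 days, where 31.1% of all genes were (16.7% higher and 14.4% lower), and they are named here after their values were seen. POGLUT1, which adds glucose, and RFNG (Radical fringe) were higher by 0.51 ± 0.06 and 0.54 ± 0.06 on the log2 scale, whereas LFNG (Lunatic fringe) and MFNG (Manic fringe) were lower by 0.70 ± 0.14 and 0.77 ± 0.14. The lane-adjusted values of LFNG and MFNG were 0.33 and 0.03, on the other side of 0. Without untreated replicate 5, POGLUT1 and RFNG were no longer past the threshold on the fold. Of the 9 genes of receptor cleavage only PSEN2, a γ-secretase subunit, was called (0.54 ± 0.10), and not without untreated replicate 5 (0.41). Of the 9 genes of the nuclear activation complex 4 were called: MAML3, MAML1 and CREBBP were lower, and the acetyltransferase KAT2A was higher (0.82 ± 0.06). CREBBP lost its call without untreated replicate 5 (−0.38). RBPJ itself was not called (0.34). Of the 13 corepressors 2 were called (15.4%, beside the same 31.1%), both lower, among them TLE2. The estimates of all 13 were below 0, which is named here after the values were seen. Their median was −0.38, beside 0.01 for all genes, and lay between −0.33 and −0.39 under 3 other scalings. Of the 13, 9 had an adjusted p under 0.05, beside 64.2% of all genes. The median was −0.47 without untreated replicate 4, and −0.66 with the lane as a term, where 12 of the 13 lay below 0. Without untreated replicate 5 the median was −0.25 and 12 of the 13 lay below 0.

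**Figure D5:**
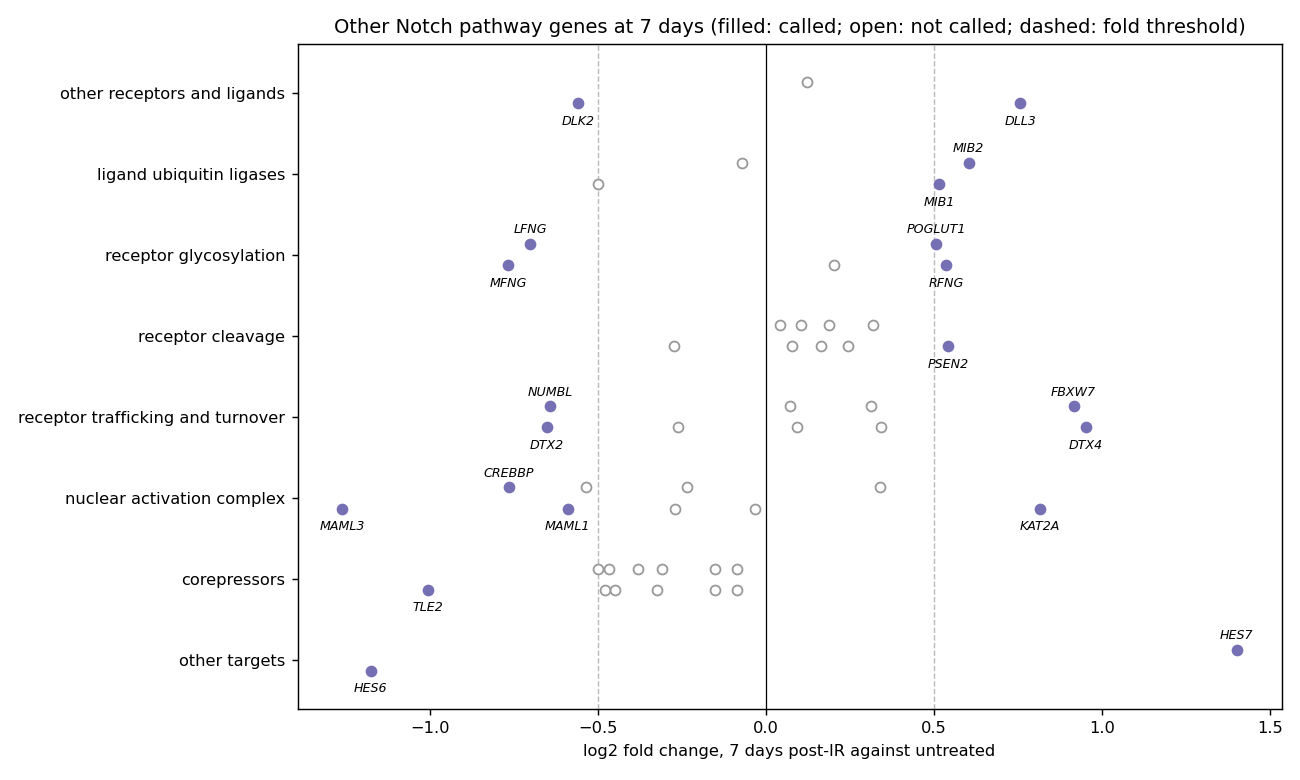
Log2 fold changes of other Notch pathway genes at 7 days post-IR against untreated cells, grouped by role, with 1 called corepressor not drawn. Filled and named genes were called, 10 of them to the right of 0, and all corepressors drawn lie left of 0.

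In the knockdown 7 of the 54 were called, 3 higher and 4 lower (13%, beside 12.7% of all genes). NEURL1, a Neuralized ubiquitin ligase that acts on ligands, rose from 1.15 ± 0.324 to 2.94 ± 0.0532 CPM (log2 fold change 1.38 ± 0.15, adjusted p = 2.03e-07), and its paralog NEURL1B fell from 114 ± 15.9 to 70.1 ± 3.42 CPM (−0.70 ± 0.07, adjusted p = 2.1e-07). HES7 rose to 1.24 ± 0.269 CPM (1.15 ± 0.23, adjusted p = 0.000392). The corepressor TLE4 fell from 0.817 ± 0.183 to 0.358 ± 0.118 CPM (−1.12 ± 0.20, adjusted p = 0.000142), from 7 to 28 counts per library in these groups. HES6 (−0.62) and the Numb-like adaptor NUMBL (−0.59) were also lower, and these calls were lost without untreated replicate 4 and without untreated replicate 5, respectively. POGLUT1, named as the remaining call, was higher by 0.53 ± 0.06, and not past the threshold without either of these replicates. With the lane as a term 3 of the 7 calls held, those of POGLUT1, NUMBL and TLE4. The lane-adjusted values of the others were 1.21 for HES7 (adjusted p = 0.206), 0.84 for NEURL1 (adjusted p = 0.189), −0.26 for NEURL1B and 0.15 for HES6.

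From the first to the second phase 14 of the 54 were called, 7 in each direction (25.9%, beside 29.3% of all genes), and 13 of these held within the shared lane. The largest were HES7 (log2 fold change 1.57 ± 0.22, adjusted p = 2.75e-06), DTX4 (1.23 ± 0.04, adjusted p = 1.99e-15), HES6 (−1.14 ± 0.20, adjusted p = 3.48e-05), MAML3 (−0.87 ± 0.16, adjusted p = 6.6e-05), KAT2A (0.83 ± 0.06, adjusted p = 2.17e-10) and DLL3 (0.75 ± 0.15, adjusted p = 0.000189), a Delta-like protein known to inhibit Notch within the cell. Between the second phase and the knockdown 9 of the 54 were called, 4 higher and 5 lower (16.7%, beside 25.7% of all genes).

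The genes whose log2 CPM followed a Notch gene most closely over the 20 libraries are given as a description, since all values come from the same libraries. For JAG1 they were MDM2 (Pearson r = 0.981), CDKN1A (0.980) and INKA2 (0.978). MDM2, a ubiquitin ligase of p53, averaged 205, 498, 704 and 197 CPM in untreated cells, at 1.5 h, at 7 days and in the knockdown, and CDKN1A, which encodes the cell cycle inhibitor p21, averaged 225, 690, 816 and 260 CPM. For NOTCH1 they were ZNF275 (0.957), SPTY2D1 (0.947) and OTUD3 (0.931). For HES1 they were EBF1 (0.977), TPM4 (0.975) and CHAF1B (0.974), of which EBF1, a transcription factor, averaged 7.29, 7.17, 2.66 and 3.52 CPM in the same order of groups.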

How the data were processed

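RNA was sequenced from 20 stranded mRNA libraries of U2-OS cells. The deposited values are whole-number read counts per gene without normalization, for 20314 genes. The submitters' processing notes name bcl2fastq, Trimmomatic, STAR 2.4.2a and hg19. The counting tool, the annotation and the use of strand are not given in the sources used here. The analysis used edgeR 4.0.16 in R 4.3.3: filterByExpr (minimum count 10) left 14992 genes, library sizes were scaled by TMM, and 1 quasi-likelihood model with a term per group was fitted to all libraries, with Benjamini-Hochberg adjustment over the genes tested. Standard errors came from the F statistic. Members were also compared by exact two-sided permutation tests of log2 CPM (prior count 2, smallest p 0.00794). Tests were checked on simulated data with known changes. Lengths per kilobase came from the table's own width column, overlaps and GC content from GENCODE 29, promoters from RefSeq, and figures from matplotlib 3.10.9. Totals per library were 22535659 to 40390961 counts.

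The members, lists and tests were chosen with earlier results of these data known. Named beside the members were NFKBIA, up to 6 called pathway genes per comparison by size of change, and, for the receptor, the ligand and the HES/HEY gene with the largest change at 7 days, the 3 most correlated genes. Alternatives were other scalings (RLE, upper quartile, library size), DESeq2 1.42.0, other filters, a fit restricted to the 2 groups compared, the adjusted p alone, lane or replicate number as a term, GC and length offsets, and each library left out. Libraries were compared with each other, and no pair agreed within sampling noise. Single values of 1 pathway gene and 1 marker are not reported here.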

Additional observations from a re-analysis of the deposited data

Results flagged for a closer look

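In 3 of 32 groups of 5 libraries, 1 library lay farther from the others than Dixon's 95% limit of 0.71 (its gap to the nearest library over the range of the group); chance alone gives about 1 in 20. HES1 in untreated replicate 5 was the highest of its group (0.873), NOTCH2 in 7-day replicate 2 the lowest (0.757) and HEY1 in 7-day replicate 5 the highest (0.789). Irradiated cells differed between the 2 time points for 4 genes that passed both the adjusted p and the fold threshold of 0.5 on the log2 scale in the direct test of that difference, while JAG1 and NOTCH1 passed only the adjusted p. The log2 fold change at 7 days less that at 1.5 h was −0.79 for HES1, 0.618 for HEY1, −0.669 for JAG2 and 0.634 for DLL1.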

How the results depend on the processing

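Over all alternatives, 796 of the computed log2 fold changes of the 8 tested genes kept their direction and their side of the threshold, 48 changed sign, 25 passed the threshold and 19 no longer did. The calls of JAG1 in both phases, of HES1 and HEY1 at 7 days against untreated cells and of HEY1 in the knockdown held in all of them. So did those of HES1 and DLL1 at 7 days against 1.5 h and of JAG1 at 7 days against the knockdown. With the lane as a term, or equally within the shared lane, 4 of the 8 genes were called at 1.5 h, and 19 of the 54 other pathway genes; in the knockdown these counts were 5 and 17. Over all genes tested, 25.5% were called at 1.5 h and 27.3% in the knockdown with the lane as a term. NOTCH2 (−0.55), NOTCH3 (−0.88) and HEY1 (1.12) gained a call at 1.5 h and NOTCH1 (0.47) lost it. In the knockdown, 1 of the 8 genes was called without untreated replicate 5, and also without untreated replicates 4 and 5, an alternative chosen after seeing the data (range with 1 library left out: 1 to 2), beside 11.9% and 11.7% of all genes. The call of NOTCH1 at 7 days ended with no filter (0.489), and that of HEY1 from the first to the second phase ended with GC and length offsets (0.491). With the adjusted p alone, 14, 41, 21, 33 and 30 pathway genes were called at 1.5 h, at 7 days, in the knockdown, at 7 days against 1.5 h and at 7 days against the knockdown, and 4 of the 8 genes in the last. By the same rule 21.3%, 64.2%, 40.5%, 60.9% and 57.4% of all genes were called. With only the 2 groups compared, 1 pathway gene was called at 1.5 h, beside 2.62% of all genes. With 1 library left out the number lay between 1 (without untreated replicate 5, beside 3.28% of all genes) and 5 (without untreated replicate 4, beside 4.11%). Of NOTCH3 at 7 days, 13 of 22 alternatives passed the threshold.

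Values that changed sign were as follows. At 1.5 h against untreated cells, JAG2 was 0.479 with the lane, 0.036 with GC and length offsets and 0.038 with these and the replicate block. DLL1 was −0.001 with RLE, −0.019 with upper-quartile factors, −0.008 with no filter, −0.01 with at least 10 counts in every library and −0.12 without untreated replicates 4 and 5. HES1 was 0.0 with library size alone, 0.006 with GC and length offsets, 0.021 with these and the block, and 0.129 without untreated replicates 4 and 5. In the knockdown, the lane gave −0.647 for NOTCH1, −0.123 for JAG1 and 0.687 for JAG2. NOTCH3 was 0.021 with library size alone, 0.069 with offsets, 0.092 with offsets and the block and 0.016 without untreated replicates 4 and 5. JAG2 was 0.022 with upper-quartile factors, 0.052 with library size alone, 0.004 with 2 groups, 0.003 with the replicate block, 0.082 with offsets and 0.087 with offsets and the block. At 7 days against the knockdown, offsets gave −0.211 for NOTCH2 (adjusted p = 0.00476, against 0.067 without them) and −0.018 for HEY1, and with the block −0.211 and −0.017. With 1 library left out, values at 1.5 h ran from −0.253 to 0.016 for NOTCH2, −0.315 to 0.019 for NOTCH3, −0.139 to 0.056 for JAG2, −0.124 to 0.069 for DLL1 and −0.083 to 0.115 for HES1, and in the knockdown from −0.086 to 0.127 for NOTCH1, −0.195 to 0.139 for NOTCH3 and −0.091 to 0.094 for JAG2. The cause of these changes was not tested.

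Replicate numbers did not pair the libraries: correlations of same-numbered libraries ran from −0.254 to 0.123, and 2 of 20 libraries correlated best with their own number. The replicate block changed no call of the 8 genes. By longest transcript instead of exon union, levels were 37.1 CPM per kb for NOTCH2 and 31.0 for HES1 in untreated cells. JAG2, DLL1, HEY1, HES7, NEURL1 and TLE4 rest on few counts per library, which limits their precision. The comparisons with untreated cells are limited by untreated replicates 4 and 5 and by lanes that follow the groups.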
